A study of Mus musculus with 6 samples.

Results

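Splicing factors and nuclear RNA-binding proteins decide which parts of a primary transcript are kept as exons. SR proteins bind exons through an RNA recognition motif and recruit spliceosome parts through a tail rich in arginine and serine, and kinases of the CLK family phosphorylate that tail. The hnRNPs coat nascent RNA and often act against SR proteins at the same exon. Many genes of these families are known to control their own output by including a "poison" exon or keeping an intron in the transcript, so that 1 gene yields several RNAs of different stability.

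The 49 genes were taken by symbol from a list chosen by a reading of earlier results of the same MFAP5 and control arrays, that is, by these signal differences and by what the genes do. Probe sets counted where the platform annotation gave exactly 1 symbol, older names included, and all probe sets of a gene were averaged. This gave 47 genes with 186 probe sets, out of 18193 genes and 45037 probe sets. The 2 others, Srsf7 and Rbm3, had no probe set with 1 symbol and were not analysed here (Rbm3 was named on 2 probe sets that list several symbols). No filter on low values was applied. The list's values are therefore given as a description: the adjusted p of a gene places it in the fit over all genes and supports nothing about the list.

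RNA came from endothelial cells taken out of plugs of Matrigel, a basement membrane gel, after implantation in the abdomen of nude mice (Balb/c nude), which lack a functional thymus. In the MFAP5 group, with 3 arrays, recombinant MFAP5 had been mixed into the gel; MFAP5 is an extracellular matrix protein found on microfibrils. In the control group, with 3 arrays, the gel lacked it. How the cells were isolated and how long the plugs stayed in place are not stated in the labels. Each sample was hybridized to 1 Affymetrix array; the labels call the samples independent but do not say whether each came from its own animal, so the p-values measure the spread between these samples, which may be technical. Deposited values are relative log2 signals, each probe set being centred on 0 over the 6 arrays, so levels cannot be compared between genes and the endothelial label could not be checked on levels. In bulk RNA, fewer cells of a type and less RNA per cell cannot be told apart.

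Several measures of the whole arrays bear on what follows. Control replicate 1 stood apart from the other control arrays: over all probe sets it correlated at -0.028 and 0.020 with control replicates 2 and 3, and those correlated at 0.686 with each other. The mean over bacterial spike-in probe sets was -0.038, -0.008 and -0.007 in the MFAP5 arrays, against -0.322, 0.639 and 0.653 in control replicates 1, 2 and 3. All 10 measured adipocyte markers of 12 were lower in every MFAP5 array than in any control array and 9 passed the threshold, with list medians of -4.115, -2.642 and -0.96 in MFAP5 replicates 1, 2 and 3 against 1.159, 1.352 and 1.264 in control replicates 1, 2 and 3. Of 14 endothelial markers 3 were lower without overlap and none passed the threshold by limma (3 had an unadjusted p under 0.05), at a median log2 difference of -0.18. Of 12 leukocyte markers 2 fell, S100a8 and S100a9. With Cd68 (-0.43, limma adjusted p = 0.104), 3 were lower without overlap. The 2 higher without overlap were Ptprc and Itgam (0.62 and 0.36, limma adjusted p = 0.172 and 0.205). Over all genes 17.8% were lower and 6.51% higher without overlap. None of 10 fibroblast and mural or 6 mesothelial markers passed (4 and 1 had an unadjusted p under 0.05). The part of these differences in the results below was not tested.

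Of the 47 genes 3 rose with MFAP5 and none fell (limma, adjusted p under 0.05; 17 were higher and none was lower at an unadjusted p under 0.05). Over all genes 0.759% were called higher and 2.79% lower. The 3 were Rbm39, a splicing factor and transcriptional coactivator related to the U2AF large subunit, Nktr, a cyclophilin-domain protein with arginine- and serine-rich stretches, and Srsf11, an SR protein. In 20 of the 47 all 3 MFAP5 arrays lay above all 3 control arrays, which held for 6.51% of all genes, and in 2 they lay below, against 17.8% of all genes. The differences (MFAP5 minus control) ran between -0.16 and 1.02, with a median of 0.22 where that of all genes was -0.08. Because the genes were listed with these results known, nothing is read from these counts about the list. They also rested on single arrays: without control replicate 1, 18 of the 47 were called higher, while limma called none without control replicate 2 (12 at an unadjusted p under 0.05) or without control replicate 3 (10). Over all 18193 genes the counts called higher moved as well. They were 760, 16 and 14 without control replicates 1, 2 and 3 in turn, against 138 with all arrays.

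**Figure D1:**
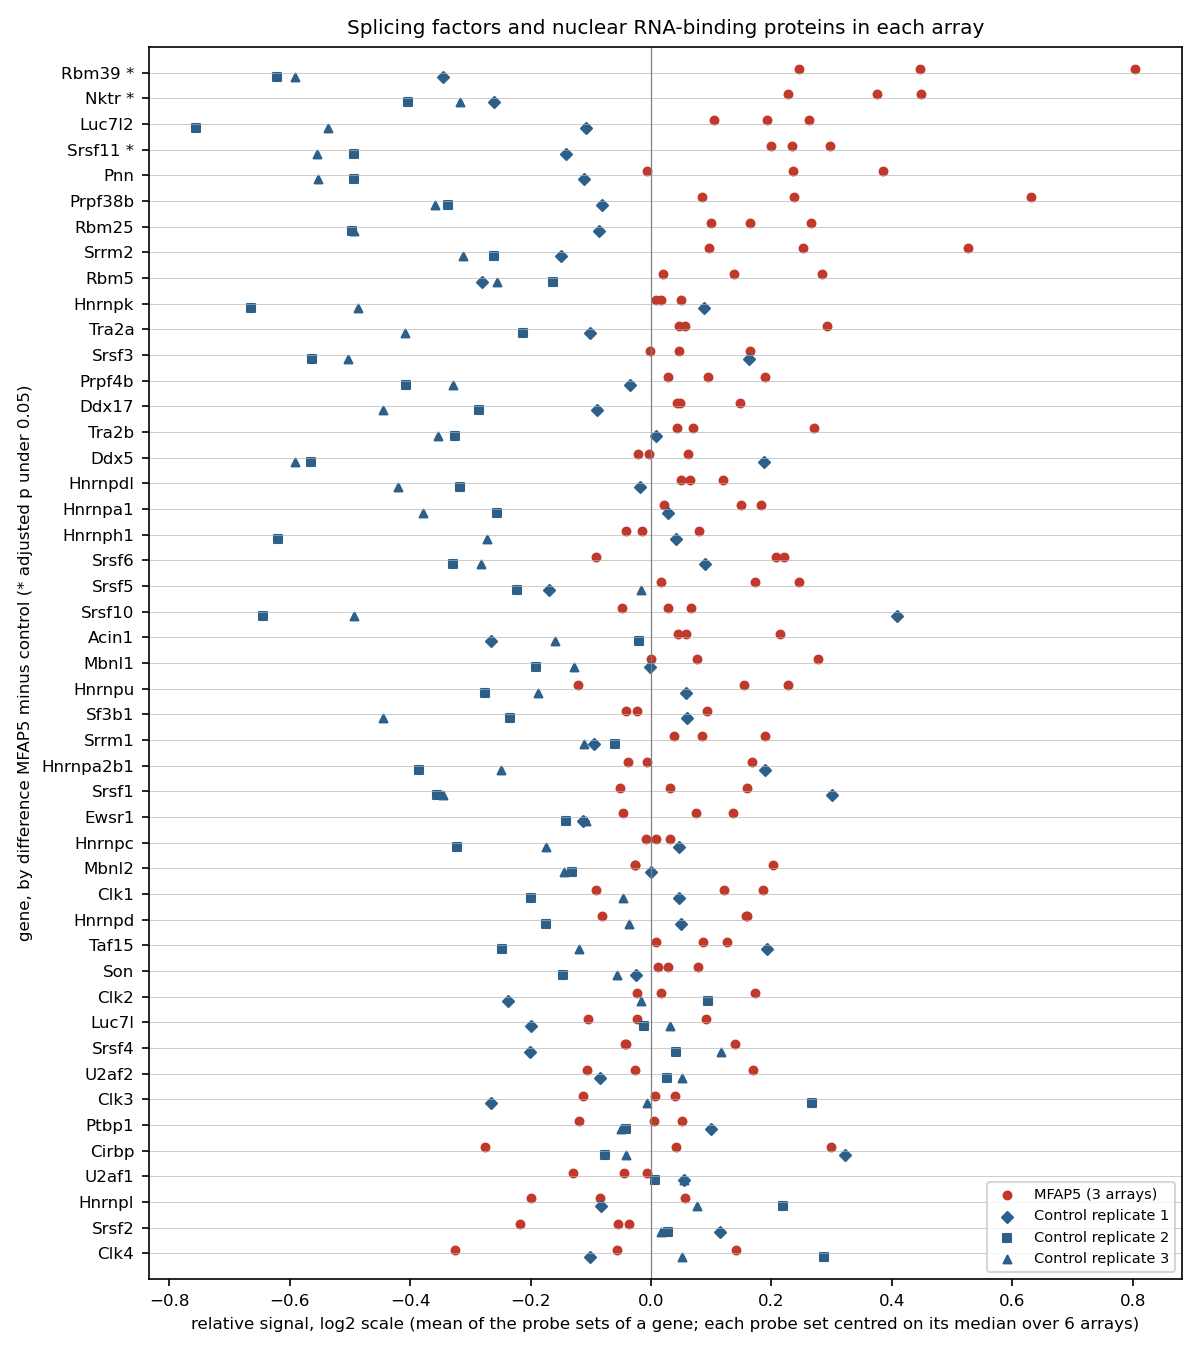
Relative signal on the log2 scale (horizontal axis) of each of the 47 genes (vertical axis, ordered by difference) in the 3 MFAP5 arrays (red) and the 3 control arrays (blue, 1 symbol per replicate). Rbm39 and Nktr show wide gaps between the groups, whereas for Srsf10 control replicate 1 lies at 0.41, above all MFAP5 arrays.

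The promoters of the 3 genes that rose are shown because these genes passed the threshold, as a view of what their start regions hold. Whether the 3 genes are regulated together was not tested. The first RefSeq promoter listed for each (GRCm38.p6; 250 bases before to 50 after the start) is that of Rbm39 at chr2:156180189-156180488 on the minus strand, that of Nktr at chr9:121718931-121719230 on the plus strand and that of Srsf11 at chr3:158036557-158036856 on the minus strand. All are written 5′ to 3′ on the gene's strand, with matches of the searched motifs in capitals on either strand.
Rbm39: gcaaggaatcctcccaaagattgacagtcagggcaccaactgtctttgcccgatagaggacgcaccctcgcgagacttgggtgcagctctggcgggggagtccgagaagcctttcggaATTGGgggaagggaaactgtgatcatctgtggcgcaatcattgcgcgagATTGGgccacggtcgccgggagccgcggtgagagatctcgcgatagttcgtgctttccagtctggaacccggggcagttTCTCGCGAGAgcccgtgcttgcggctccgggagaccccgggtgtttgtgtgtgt
Nktr: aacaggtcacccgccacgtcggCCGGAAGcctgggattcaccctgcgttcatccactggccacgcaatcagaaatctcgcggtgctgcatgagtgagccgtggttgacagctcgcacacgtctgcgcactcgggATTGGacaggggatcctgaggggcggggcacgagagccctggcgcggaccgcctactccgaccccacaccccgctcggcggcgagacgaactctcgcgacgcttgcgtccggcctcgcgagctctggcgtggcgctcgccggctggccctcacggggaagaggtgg
Srsf11: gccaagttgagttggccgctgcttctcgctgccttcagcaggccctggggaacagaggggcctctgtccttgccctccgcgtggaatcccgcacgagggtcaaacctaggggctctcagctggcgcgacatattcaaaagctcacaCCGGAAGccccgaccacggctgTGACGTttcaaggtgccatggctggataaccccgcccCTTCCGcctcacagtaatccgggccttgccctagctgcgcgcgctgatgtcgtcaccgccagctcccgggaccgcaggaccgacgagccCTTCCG

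In all, 11 motifs were searched on both strands: CGGAAG, the core of ETS factor sites, with its forms CCGGAA and CCGGAAGT, a palindrome of 10 bases with CGCG at its centre that is known from housekeeping promoters, TGACGTCA, the CREB site, with its part TGACGT, the CCAAT box as CCAAT and as GATTGGCT, the E box CACGTG, the palindromic NRF1 site, and GGAATTTCC, a kappa B site. The forms of 1 site overlap each other. CGGAAG stood in the Nktr and Srsf11 windows printed above and not in that of Rbm39, whose window held the CGCG palindrome (the longest run of capitals). The CCAAT box was in the Rbm39 and Nktr windows and TGACGT in that of Srsf11. The second promoter listed for Rbm39 did hold CGGAAG. Of the 64 promoters listed for 45 of the 49 genes, 39.1% held CGGAAG, against 16.9% of all 32851 promoters. The CGCG palindrome was in 3.12% (2 promoters) against 0.466%, CCAAT in 48.4% against 37.4%, and TGACGTCA in 3.12% (2 promoters) against 1.79%. CCGGAA was in 32.8% against 14.9%, CCGGAAGT in 14.1% against 3.89% and TGACGT in 20.3% against 7.51%. GATTGGCT was in 6.25% against 3.84% and the NRF1 site in 3.12% (2 promoters) against 0.971%. CACGTG was in 7.81% against 7.15%, and GGAATTTCC in 0.0% of the 64 promoters against 0.317%. These promoters were also richer in G and C than all promoters (median 64.2% against 52.7%), with a median of 27 against 7 CG dinucleotides, and the part of base composition in these shares was not tested.

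The RNA-binding motif proteins had the largest median difference of the 10 role groups, 0.53, and 1 of the 3 rose (0.759% of all genes). These 3 were listed with these results known, so nothing is read from this rank about the family. Genes with RBM names in the further lists below ran between -0.13 (Rbm17) and 0.31 (Rbm26), and limma called none of them. Rbm39 stood at 0.45, 0.25 and 0.80 in MFAP5 replicates 1, 2 and 3, against -0.35, -0.62 and -0.59 in control replicates 1, 2 and 3. The groups did not overlap, and MFAP5 replicate 2 lay closest to the controls. Its mean was 0.50 ± 0.28 with MFAP5 and -0.52 ± 0.15 in controls (SD, n = 3 each), a log2 difference of 1.02 ± 0.16 (SE; limma adjusted p = 0.0104), or 2.03-fold if the deposited log is of base 2. By difference it ranked 71 among the 18193 genes. Leaving out control replicate 2 or 3 took its adjusted p to 0.0624 and 0.0656, with differences of 0.97 and 0.98, and a spike-in covariate took it to 0.0508.

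Rbm25, which binds RNA and regulates alternative splicing of apoptotic factors, and Rbm5, a regulator of exon choice in the Fas transcript, were higher without overlap. Their differences were 0.53 and 0.38 (adjusted p = 0.0695 and 0.0974). Cirbp, a cold-inducible RNA-binding protein, stood at 0.30, -0.28 and 0.04 with MFAP5, against 0.32, -0.08 and -0.04 in controls. Its groups overlapped over most of their range, at a difference of -0.05 ± 0.17 (adjusted p = 0.900).

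All 6 SR-related proteins of nuclear speckles were higher in every MFAP5 array than in every control array, as were 6.51% of all genes. They were listed with these results known, so nothing is read from this count about the family. Of them 1, Nktr, passed the threshold. Nktr had values of 0.38, 0.23 and 0.45 in MFAP5 replicates 1, 2 and 3, against -0.26, -0.40 and -0.32 in control replicates 1, 2 and 3. The 3 control values lay close together, control replicate 1 included. The difference was 0.68 ± 0.10 (adjusted p = 0.0104), 1.60-fold at base 2. Without control replicates 2 and 3 in turn it was 0.64 and 0.68, at adjusted p = 0.0585 and 0.0621.

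The other 5 speckle proteins missed the threshold. Pnn, which joins the exon junction complex and also sits at desmosomes, had a difference of 0.59 (adjusted p = 0.0762), and Srrm2, a large scaffold of the spliceosome and of speckles, one of 0.53 (adjusted p = 0.0622). Srrm2 passed with quantile normalization, a variance trend, array weights and the median of its probe sets, and without control replicate 1 (adjusted p between 0.0112 and 0.0496). Acin1, a subunit of a complex that binds exon junctions, Srrm1, a splicing coactivator, and Son, a speckle scaffold, were at 0.25, 0.19 and 0.11 (limma adjusted p = 0.243, 0.302 and 0.522). For Son the gap was small, with MFAP5 replicate 2 at 0.011 and control replicate 1 at -0.025.

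Among 10 measured SR proteins and Tra2 proteins 1 rose, and 4 were higher and 1 lower without overlap (6.51% and 17.8% of all genes). Srsf11 stood at 0.23, 0.20 and 0.30 with MFAP5, against -0.14, -0.49 and -0.55 in controls. The MFAP5 arrays were alike, and control replicate 1 lay between them and the other controls. Its difference was 0.64 ± 0.13 (adjusted p = 0.0323), 1.56-fold at base 2. It passed the threshold in no fit that left out an array except that without control replicate 1 (adjusted p = 0.00675; otherwise between 0.0757 and 0.154, at differences between 0.56 and 0.66).

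Tra2a and Tra2b, which bind exonic enhancers, had differences of 0.37 and 0.35, and Srsf5, an early-response SR protein, one of 0.28, each with no overlap (adjusted p = 0.148, 0.191 and 0.207). Srsf2, which marks nuclear speckles, was the SR gene that lay lower without overlap, at -0.22, -0.04 and -0.06 with MFAP5 against 0.11, 0.03 and 0.02 in controls, a difference of -0.16 ± 0.10 (adjusted p = 0.419). Its 4 probe sets ran between -0.56 and 0.29, and its direction turned when it was read from the most variable one (0.29, adjusted p = 0.546). Srsf10, a splicing repressor when dephosphorylated, had the widest control spread of the group. Its values were -0.05, 0.07 and 0.03 with MFAP5, against 0.41, -0.64 and -0.49 in controls. Control replicate 1 was thus above, and the other controls below, every MFAP5 array. The groups of the remaining SR genes overlapped, at differences of 0.37 for Srsf3, 0.29 for Srsf6, 0.18 for Srsf1 and 0.03 for Srsf4.

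None of the 5 kinases of SR proteins was called by limma (1, Prpf4b, had an unadjusted p under 0.05). Of the 5, 4 overlapped between the groups, as did 13773 of all 18193 genes. Prpf4b, a kinase that associates with the spliceosome, stood at 0.03, 0.10 and 0.19 with MFAP5, against -0.04, -0.41 and -0.33 in controls. It was higher without overlap, by a small gap to control replicate 1, with a difference of 0.36 ± 0.12 (adjusted p = 0.159). The CLK kinases, which phosphorylate SR proteins in the nucleus, had differences of 0.14 for Clk1, 0.11 for Clk2, -0.02 for Clk3 and -0.16 for Clk4 (adjusted p between 0.536 and 0.952). Clk1, Clk2 and Clk3 rest on 1 probe set each and Clk4 on 2.

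No factor of splice site recognition passed by limma (2 of 6 had an unadjusted p under 0.05). Luc7l2, a U1 snRNP-associated protein that helps choose 5′ splice sites, stood at 0.19, 0.11 and 0.26 with MFAP5, against -0.11, -0.76 and -0.54 in controls. Its difference of 0.65 ± 0.16 was as large as that of Srsf11, but the control arrays were spread more widely (adjusted p = 0.0673). Prpf38b, annotated as a pre-mRNA processing factor, had 0.58 (adjusted p = 0.0874). The others lay nearer 0: Luc7l, a paralogue of Luc7l2, was at 0.05, U2af2, the subunit that binds the polypyrimidine tract, at 0.01 and U2af1, which reads the end of the intron, at -0.10. U2af1 was lower without overlap, as were 17.8% of all genes (limma adjusted p = 0.577). Its gap was small, with MFAP5 replicate 2 at -0.007 and control replicate 2 at 0.007. Sf3b1, a U2 snRNP subunit at the branch point, was at 0.22 with overlapping groups.

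The hnRNPs and Ptbp1 gave no call by limma (2 of 10 had an unadjusted p under 0.05). Of the 10, 9 overlapped between the groups, as did 13773 of all 18193 genes. Hnrnpk, which binds C-rich RNA, stood at 0.05, 0.02 and 0.01 with MFAP5, against 0.09, -0.67 and -0.49 in controls. The MFAP5 arrays lay close together, while control replicate 1 was above them and the other controls far below, and its difference of 0.38 ± 0.18 did not pass (adjusted p = 0.288). Hnrnpdl, a paralogue of Hnrnpd, was higher without overlap by 0.33 (adjusted p = 0.194). The other hnRNPs with a positive difference, all with overlapping groups, were Hnrnpa1 at 0.32, Hnrnph1 at 0.29 (0.57 without x and s probe sets), Hnrnpu at 0.22, Hnrnpa2b1 at 0.19, Hnrnpc at 0.16 and Hnrnpd at 0.13. Hnrnpl and Ptbp1, which often repress exons, were at -0.15 and -0.02. In 9 of these 10 genes control replicate 1 lay above both other control arrays, as it did in 34 of the 47 genes. The share over all genes was not taken, so nothing is read from this count about the family.

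Among the remaining families none passed by limma (1 of 6 had an unadjusted p under 0.05). The RNA helicase Ddx17 stood at 0.15, 0.05 and 0.04 with MFAP5, against -0.09, -0.29 and -0.45 in controls. These groups did not overlap, and the difference was 0.35 ± 0.12 (adjusted p = 0.149). Its 3 probe sets stood at 0.85, 0.31 and -0.11, and without the first, an x probe set, which may bind other transcripts, the gene was at 0.10 (adjusted p = 0.582). Its paralogue Ddx5 differed by nearly the same amount, 0.33, but with control replicate 1 at 0.19, above all MFAP5 arrays. Ewsr1, a FET family RNA-binding protein, stood at 0.07, -0.05 and 0.14 with MFAP5, against -0.11, -0.14 and -0.11 in controls, a small gap and a difference of 0.18 ± 0.10 (adjusted p = 0.351; 0.10 without x and s probe sets). Mbnl1, a muscleblind protein that controls developmental splice choices, stood at 0.076, 0.000 and 0.277 with MFAP5, against -0.001, -0.191 and -0.128 in controls, groups that barely did not overlap (difference 0.22 ± 0.11, adjusted p = 0.309). Taf15 and Mbnl2 differed by 0.13 and 0.14, with overlap.

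Set against each control array, the genes fell into different patterns. In 20 genes all 3 control arrays were below all MFAP5 arrays. In a further 14 (29.8%, against 8.25% of all genes) control replicates 2 and 3 were below all MFAP5 arrays and control replicate 1 was not. In 7 of these 14 control replicate 1 was within the MFAP5 range, as for Srsf3, Srsf6 and Hnrnpa1. In the other 7, namely Srsf1, Srsf10, Hnrnpa2b1, Hnrnpc, Hnrnpk, Ddx5 and Taf15, it was above every MFAP5 array (14.9%, against 3.42% of all genes). Srsf10 was 0.58 higher with MFAP5 than the mean of control replicates 2 and 3, and 0.39 lower than control replicate 1. Rbm39 was 1.11 and 0.84 higher, and Nktr 0.71 and 0.61 higher, against the same arrays.

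**Figure D2:**
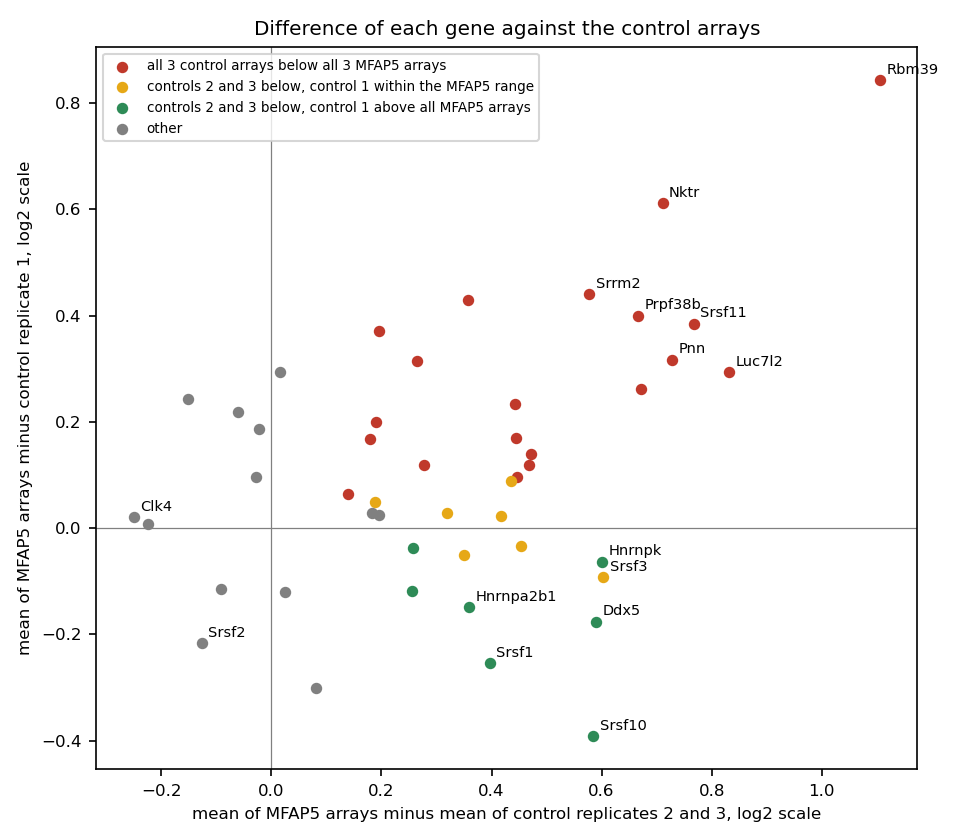
Each point is 1 gene: the mean of the 3 MFAP5 arrays minus the mean of control replicates 2 and 3 (horizontal axis, log2 scale) against the same mean minus control replicate 1 (vertical axis, log2 scale). Rbm39 (1.11, 0.84) and Nktr (0.71, 0.61) lie high on both axes, while Srsf10, Srsf1 and Ddx5 lie right of 0 and below 0.

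The medians of the 47 genes per array were 0.03, 0.04 and 0.16 in MFAP5 replicates 1, 2 and 3, against -0.03, -0.25 and -0.25 in control replicates 1, 2 and 3. The low arrays were thus the 2 control arrays with high spike-in signals, and control replicate 1, with the lowest spike-in signal, lay near the MFAP5 arrays. In a fit with the spike-in mean added, the median difference of the 47 genes was 0.13, against 0.22 without it, and that of all genes was -0.05. Nktr and Srsf11 still passed (0.64 and 0.51, adjusted p = 0.0347 and 0.0476) and Rbm39 did not (0.93, adjusted p = 0.0508). Ddx5 was at 0.07, against 0.33 without it, and Srsf1 and Srsf10 turned sign, to -0.05 and -0.08. The spike-in mean hardly varied among the MFAP5 arrays and was nearly equal in control replicates 2 and 3. In this fit it therefore acted mainly as a mark of control replicate 1 against the other controls. The fit cannot tell spike-in signal apart from anything else that sets control replicate 1 apart. The 3′ to 5′ signal difference of beta-actin, a measure of RNA integrity and labelling, was 0.144, 0.082 and 0.036 with MFAP5 against -0.005, -0.053 and -0.032 in controls, higher without overlap (exact permutation test, two-sided, p = 0.1, the smallest that 3 against 3 arrays allow). The same measure for Gapdh overlapped (difference 0.081, p = 0.4 in the same exact test).

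Other genes of the same process were read from 3 further lists. These were also chosen with earlier results of these data known, so nothing is read from their counts about the process. Of 97 measured genes limma called none (12 higher and 2 lower at an unadjusted p under 0.05), and 14 were higher and 9 lower without overlap (14.4% and 9.28%, against 6.51% and 17.8% of all genes). Among 52 other splicing regulators 46 had a positive difference (88.5%, against 34.4% of all genes) and 9 were higher without overlap (17.3%), with a median of 0.14. Their median signal was 0.01 in control replicate 1, within the range of the MFAP5 medians, and -0.17 and -0.14 in control replicates 2 and 3. The regulators with the smallest p were Thrap3, a speckle-associated SR-related protein, at 0.45, and Rbm26 at 0.31 (adjusted p = 0.129 and 0.139). These 2 were named after their values were seen. Among 37 core spliceosome genes, the snRNP proteins and their helicases, 13 were positive and 24 negative (64.9%, against 65.6% of all genes), with 3 higher and 9 lower without overlap (8.11% and 24.3%) and a median of -0.09, close to the -0.08 of all genes. The 8 genes of the exon junction complex and of nonsense-mediated decay had a median of 0.03.

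**Figure D3:**
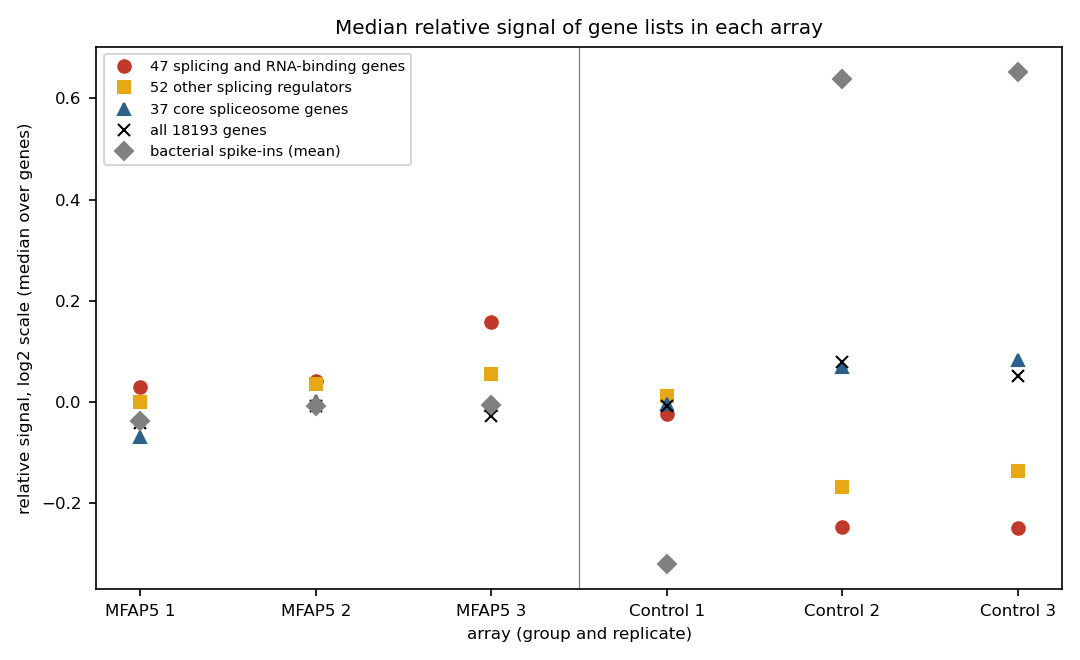
Median relative signal (vertical axis, log2 scale) of the 47 genes, 52 other splicing regulators, 37 core spliceosome genes and all genes in each of the 3 MFAP5 and 3 control arrays (horizontal axis), with the mean of the spike-in probe sets. The 47 genes are lowest in control replicates 2 and 3, both at -0.25, where the spike-ins are highest.

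Probe sets of 1 gene differed widely among themselves. In the 39 genes with 2 or more probe sets, the median SD of the differences within a gene was 0.35. The SD between the means of these genes was 0.24. A mean over several probe sets spreads less than single probe sets, so these 2 SDs are not alike and are not compared. Over all 9010 such genes the median SD within a gene was 0.17 and the SD between gene means 0.30. These genes have a median of 2 probe sets where the 39 have 4. In 9 of the 39 (23.1%, against 3.35% of all such genes) the probe sets spanned more than 1 log2 unit. In 21 of the 39 (53.8%, against 50.2%) they lay on both sides of 0. Of the 186 probe sets 17 were called higher and none lower (1.56% and 1.72% of all probe sets), and they belonged to 8 genes.

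Rbm39 illustrates the spread, with 12 probe sets, all with a positive difference, between 0.27 and 1.52. Of these 7 passed and 10 were higher without overlap, which held for 9.0% of all probe sets. Probe sets of 1 gene read the same samples and are not replicates of each other. Probe set 1446147_at stood at 0.51, 0.81 and 1.17 with MFAP5, against -0.53, -0.51 and -0.81 in controls (difference 1.44, adjusted p = 0.00549). Probe set 1420982_at stood at 0.05, 0.05 and 0.21 with MFAP5, against -0.05, -0.26 and -0.19 in controls (difference 0.27, adjusted p = 0.270). In both the groups did not overlap, though in the second the gap was small.

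In Nktr the 5 probe sets ran between 0.12 and 1.17, all were higher without overlap (9.0% of all probe sets), and 3 passed. In Srsf11 1 probe set of 4, 1430077_at, passed, at 0.50, 0.42 and 0.79 with MFAP5 against -0.42, -0.74 and -0.87 in controls (difference 1.24, adjusted p = 0.00623). The 3 others had differences of 0.35, 0.43 and 0.53. Single probe sets also passed in Rbm25 (1.20), Luc7l2 (1.31), Pnn (1.03) and Srrm1 (0.61), and 2 passed in Rbm5 (0.84 and 0.87), genes whose means did not. Rbm5 had a probe set on the other side as well, at -0.31, and the 5 of Mbnl2 ran between -0.56 and 0.89.

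**Figure D4:**
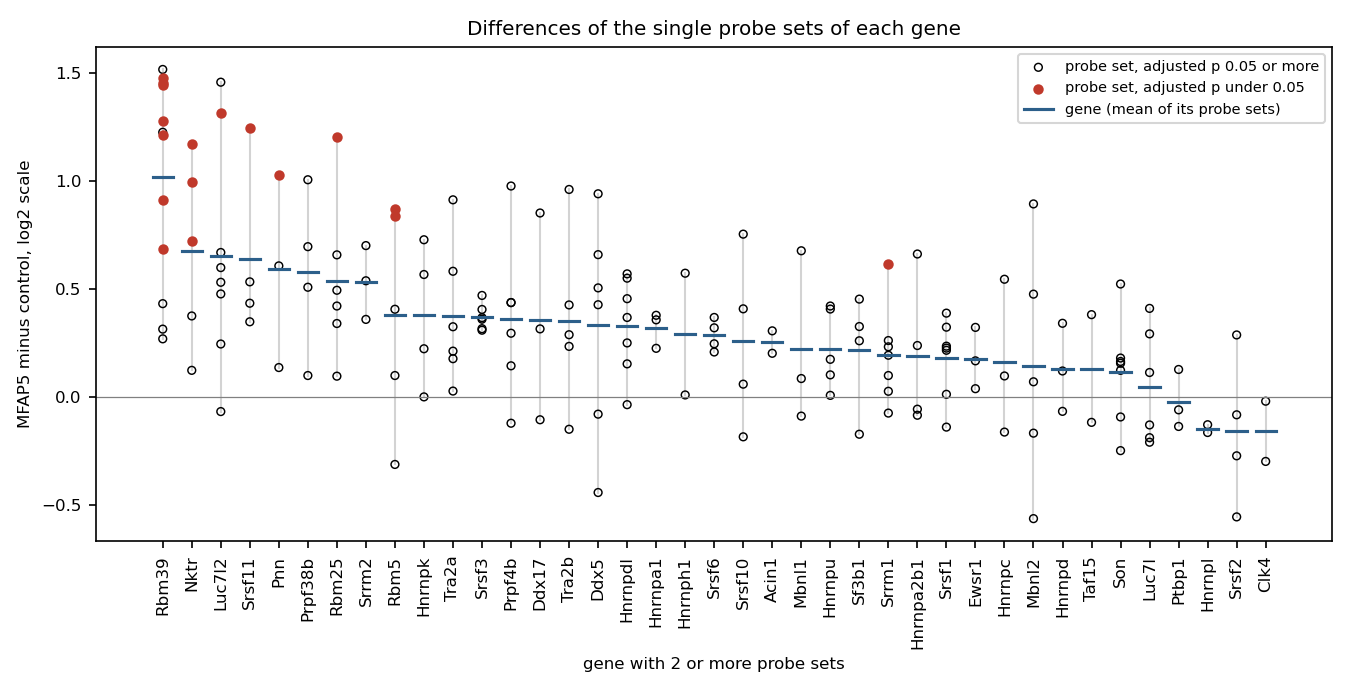
Difference MFAP5 minus control (vertical axis, log2 scale) of every probe set of the 39 genes with 2 or more (horizontal axis, ordered by gene mean), with filled points for adjusted p under 0.05 and a bar at the gene's mean. The 12 probe sets of Rbm39 lie between 0.27 and 1.52, and those of Ddx5 and Mbnl2 lie on both sides of 0.

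Whether a probe set moved unequally to the rest of its gene was tested on, per array, its signal minus the mean of the gene's other probe sets, a quantity free of the gene's own mean. Over 25762 probe sets limma called 47 (0.182%), and none of the 178 of these genes passed. Their lowest adjusted p was 0.0581, for 1452187_at of Rbm5, at -0.87 relative to its 4 companions. At an unadjusted p under 0.05, 54 of the 178 departed (30.3%), against 16.4% of all. In genes with 2 probe sets the 2 values mirror each other. The next smallest were 1437862_at of Rbm25 (0.80), 1430077_at of Srsf11 (0.81) and 1420982_at of Rbm39 (-0.82), at adjusted p = 0.0673, 0.0706 and 0.0758. The diffSplice test of limma called probe sets in 4 of the 39 genes, Nktr, Rbm5, Srrm1 and Srsf11. Its count over all genes was not taken, so these calls have no share to be set against.

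Probe sets were also grouped by the kind of record that the annotation lists for them. The 110 probe sets of these genes listed with an expressed sequence tag had a median difference of 0.36, and 43.6% were higher without overlap. The 51 listed with an mRNA record had 0.14 and 21.6%, and the 25 with none listed had 0.31 and 36.0%. Relative to the other probe sets of the same gene the medians were 0.01 and -0.04 for the first 2 kinds. Such deviations sum to 0 within a gene, and genes were included whether or not they had both kinds. These medians are thus drawn toward 0 by construction and do not measure the contrast of the kinds within genes. Over all named probe sets the medians of these 2 kinds were -0.03 and -0.10, with 9.38% and 5.01% higher without overlap. Which exon, intron or transcript end each probe set reads was not analysed here.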

How the data were processed

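Total RNA of 3 MFAP5 and 3 control samples was amplified to biotinylated cRNA, per the labels' protocols, and each sample has 1 one-colour Affymetrix mouse array. The submitters' processing notes name MAS5, with no further step. The deposited values were taken as log2 signals from their range: medians over the 6 arrays were 0 for each probe set (tolerance 5e-07), and the widest probe set spanned 8.24 units, too wide for base 10. A natural log is possible, and folds would then be larger. That higher values mean more signal is assumed. Centring removed levels, so no dim probe sets could be filtered. The number of arrays limits the precision.

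After 64 control probe sets were left out, 34945 of 45037 had 1 symbol, 932 had several and 9160 were not listed. Symbols were updated by Entrez identifier through RefSeq (GRCm38.p6), which matched 34741. Fits used limma 3.58.1 (R 4.3.3; lmFit, eBayes, two-sided, Benjamini-Hochberg over all genes or probe sets, threshold 0.05) and were tested on simulated data. The spike-in level is the mean of 14 probe sets for bioB, bioC and bioD.

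Members, lists and motifs were chosen with earlier results of these data known. Values per array are given for members past the threshold and for that of largest absolute difference in each role group. Srsf2, Srsf10 and the probe sets named were chosen after their values were seen. Accession kinds, patterns of the controls and motif searches were added after the data were seen.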

Additional observations from a re-analysis of the deposited data

How the results depend on the processing

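All 3 called genes kept their direction in the 15 alternatives run for each. The count of genes called higher was 3 in the fit reported, 5 when each gene was read from its most variable probe set and 20 with array weights, which gave control replicate 1 a weight of 0.308 and control replicate 3 one of 3.29. Over all genes these settings called 138, 223 and 1125 higher, and 508, 501 and 2879 lower. Leaving out 1 array gave between 0 and 18 genes higher and 0 lower by limma. Over all genes it gave between 14 and 760 higher and between 205 and 1914 lower. The median difference of the 47 genes was 0.22 in the fit reported and 0.13 with the spike-in covariate, the lowest of the settings. It was 0.52 with the most variable probe set and between 0.18 and 0.35 with 1 array left out. Genes with a departing probe set numbered 0 in the fit reported, 3 with a variance trend, 26 with array weights, 1 with the replicate block, 1 without x and s probe sets, 4 by diffSplice, and between 0 and 26 with 1 array left out. Over all genes with 2 or more probe sets, departing probe sets numbered 47 in the fit reported, 145 with a variance trend and 3431 with array weights. They numbered 186 with the replicate block, 83 without x and s probe sets, and between 2 and 4306 with 1 array left out. Of the 97 other splicing genes 0 were called in the fit reported (14 at an unadjusted p under 0.05), 22 with array weights, 3 with the most variable probe set, 1 without x and s probe sets, and between 0 and 15 with 1 array left out. The highest of these leave-one-out counts came without control replicate 1, and the cause was not tested. Rbm39 also missed the threshold with the most variable probe set (adjusted p = 0.0582) at a larger difference of 1.52, and Srsf11 with the median of probe sets (0.0631) at 0.62. Of the genes not called, 10 turned sign under at least 1 setting. Same-numbered samples had correlations of 0.210, 0.055 and 0.085 between their deviations from the group means. Those of differently numbered samples ran between -0.15 and 0.084. Each MFAP5 replicate correlated most with the control of its number, though replicates 2 and 3 by little (next highest 0.048 and 0.084). These values do not settle whether the numbers mark pairs. The fit reported did not take them as pairs, and a fit with the replicate block kept 3 genes higher. Centring levels away leaves signal over background unknown.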
